A study of Mus musculus with 6 samples.

Results

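The TNF superfamily ligands and receptors described here are 10 genes: the ligand genes Tnf, Ltb, Tnfsf9, Tnfsf10, Tnfsf13b and Tnfsf15, and the receptor genes Tnfrsf1a, Tnfrsf1b, Tnfrsf9 and Fas. They were chosen by gene symbol from the 56832 genes of the count files, and all 10 were present. RNA was sequenced from cells labelled as monocytes of mouse peripheral blood, in 6 libraries. The thrombocytopenic group had 3 libraries from mice of genotype PF4cre-iDTR given diphtheria toxin. In these mice Cre recombinase, driven by the promoter of the megakaryocyte gene Pf4, switches on a receptor for the toxin, which depletes platelets. The control group had 3 libraries from wild-type mice that were also given diphtheria toxin, so genotype and platelet state differ together between the groups and cannot be told apart. The labels give neither strain, age nor sex. They leave unsaid whether each library is a different animal, and all p-values here rest on library-to-library spread alone, which may be technical. The comparison asks how monocyte RNA differs between mice with and without thrombocytopenia.

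TNF superfamily ligands are trimeric proteins, most of them made at the cell surface and some released by proteases, and each binds one or a few receptors of the TNF receptor superfamily. Receptors with a death domain, such as those encoded by Tnfrsf1a and Fas, can start apoptosis or necroptosis. Receptors that bind TRAF adaptors, such as those encoded by Tnfrsf1b and Tnfrsf9, mainly turn on NF-kB and MAP kinase signalling. Monocytes and macrophages are a main source of TNF, and they release several other ligands of the family that act on T cells, B cells and infected or transformed cells.

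The libraries held 24842319 to 37552029 counts. All 10 listed monocyte markers were tested, 6 of them higher and 4 lower, with a summed level of 20887 to 21149 CPM (counts scaled to a library total of 1000000) in the thrombocytopenic and 18503 to 18951 CPM in the control libraries. Csf1r, Cd14, Lyz2, Itgam, Ccr2 and Adgre1 were the higher ones. Ly6c2, Fcgr1, Cd68 and Cx3cr1 were the lower ones, and among these Cx3cr1, the fractalkine receptor gene, changed most, at 11.4 ± 0.374 CPM against 52.2 ± 1.10 CPM (mean ± SD, n = 3 in each group, as for all values below). Lymphocyte RNA was scarce. The T cell receptor complex genes Cd3d, Cd3e and Cd3g had 0 counts in every library. T and NK cell markers summed to 0.320 to 1.14 CPM, and B cell markers, most of it Ighm, to 11.0 to 15.2 CPM over all libraries. Neutrophil markers summed to 9.60 to 14.3 CPM in the thrombocytopenic and 13.7 to 15.6 CPM in the control libraries. Of 5 tested neutrophil markers Ngp was lower and none higher. Basophil and mast cell markers summed to 93.3 to 99.3 CPM in the thrombocytopenic and 97.9 to 102 CPM in the control libraries, most of it Hdc, which did not pass the test, while 5 of 6 tested markers were lower and none higher. Platelet markers summed to 1220 to 1286 CPM in the thrombocytopenic and 1009 to 1055 CPM in the control libraries, nearly all of it Pf4 and Ppbp. Of 6 tested platelet markers, these 2 were higher and 3 were lower. Pf4 stood at 1095 ± 38.8 CPM in the thrombocytopenic and 924 ± 23.4 CPM in the control group, and Ppbp at 151 ± 2.47 and 95.2 ± 1.78 CPM. The lower ones were Nrgn (0.018 ± 0.031 and 3.69 ± 0.393 CPM), Itga2b (0.343 ± 0.190 and 0.863 ± 0.298 CPM) and Gp9. Gp9 had 0 counts in the thrombocytopenic and 41 in the control group, and Gp1bb had 0 counts in every library. Dendritic cell markers summed to 15.6 to 18.5 CPM in the thrombocytopenic and 31.4 to 35.3 CPM in the control libraries, with 4 of 5 tested markers lower and none higher. Their part in the results on single ligands was not tested.

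Of the 10 members, all passed the filter on low counts, 8 changed between the groups (quasi-likelihood test of edgeR, adjusted p under 0.05), and they split evenly into 4 higher and 4 lower. Over all 12488 tested genes 45.1% were called, 22.4% as higher and 22.7% as lower. Among genes with a mean of at least 10 CPM the called share was 55.2%, and 7 members belonged to that class, all of them called. The 2 groups of libraries did not overlap for 9 members, the exception being Ltb, and 51.3% of all tested genes were separated in this way. Fas, Tnfsf9, Tnf and Tnfrsf1a were higher in thrombocytopenia, and Tnfsf13b, Tnfsf10, Tnfsf15 and Tnfrsf1b were lower. Only Tnfsf10 and Tnfsf13b passed the threshold with a change of at least 1.5-fold, which 9.63% of all tested genes did. The median log2 fold change over the members was -0.0054, beside -0.00077 over all tested genes, and the median of its absolute size was 0.35, beside 0.15. In bulk RNA, fewer cells of a type and less RNA per cell cannot be told apart.

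**Figure D1:**
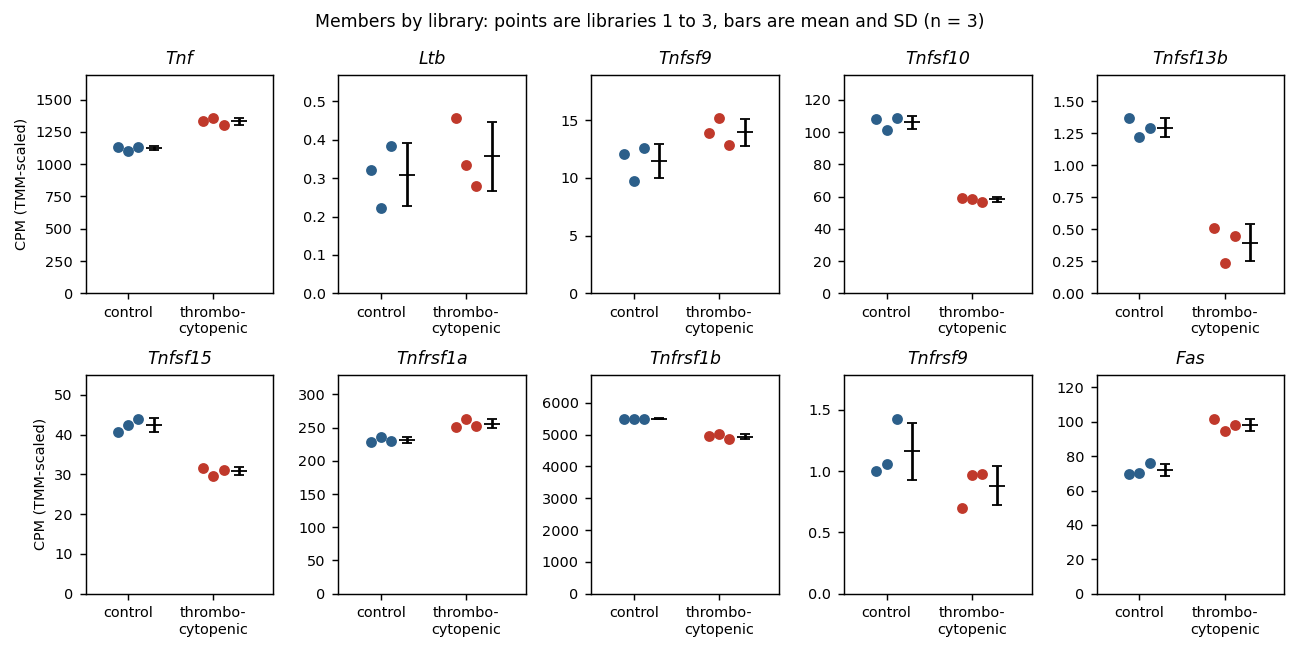
Level of each member gene in CPM scaled by TMM factors (vertical axis, from 0) in the 3 control (blue) and 3 thrombocytopenic (red) libraries, with mean and SD beside the points. Tnfsf10 falls from 101 to 108 CPM in the control libraries to 56.7 to 59.3 CPM in the thrombocytopenic ones, while the points of Ltb overlap.

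Tnf encodes tumour necrosis factor, the ligand of both TNF receptors. It stood at 1338, 1355 and 1300 CPM in thrombocytopenic libraries 1 to 3 and at 1129, 1105 and 1132 CPM in control libraries 1 to 3. All thrombocytopenic libraries were thus above all control libraries, by a small margin relative to the level. The log2 fold change was 0.25 (SE 0.024; edgeR adjusted p = 6.65e-13), or 1.19-fold. The genes whose log2 CPM followed Tnf most closely over the 6 libraries were Ccl4, a chemokine gene (Pearson r = 0.9998), Arpc5, a subunit gene of the actin-nucleating Arp2/3 complex (0.9990), and Atp6v1b2, a subunit gene of the vacuolar proton pump (0.9987). With 2 groups in 6 libraries such values are common, and 980 tested genes had an r above 0.95 with Tnf.

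The 2 TNF receptor genes moved in opposite directions. Tnfrsf1a, the death domain receptor found on most cells, stood at 251, 264 and 253 CPM in the thrombocytopenic libraries and at 228, 237 and 230 CPM in the control libraries. Tnfrsf1a rose by 0.14 on the log2 scale (SE 0.028; edgeR adjusted p = 2.78e-05). Tnfrsf1b, the TRAF-binding receptor that is typical of blood cells, stood at 4958, 5006 and 4845 CPM against 5497, 5502 and 5475 CPM. Tnfrsf1b had a log2 fold change of -0.15 (SE 0.021; edgeR adjusted p = 2.51e-08). Both changes were about 1.1-fold (1.10-fold higher for Tnfrsf1a and 1.11-fold lower for Tnfrsf1b), and neither receptor's groups overlapped. The ratio of Tnfrsf1b to Tnfrsf1a counts within a library, which no library scaling can alter, was 19.7, 19.0 and 19.2 in the thrombocytopenic libraries and 24.1, 23.3 and 23.8 in the control libraries. The ratio was lower in 3 of 3 thrombocytopenic libraries, by -0.30 on the log2 scale. An exact two-sided permutation test gave p = 0.1, the smallest that 3 against 3 libraries allow. Since the 2 genes moved apart without overlap, this separation of the ratio and its p were fixed by their values. The ratio is thus a description and no separate evidence.

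Tnfsf10 fell and Fas rose. Tnfsf10 encodes TRAIL, an interferon-inducible ligand that triggers apoptosis in transformed and infected cells. It stood at 59.3, 58.7 and 56.7 CPM in the thrombocytopenic libraries and at 108, 101 and 108 CPM in the control libraries. The log2 fold change of Tnfsf10 was -0.86 (SE 0.036; edgeR adjusted p = 3.31e-27), or 1.82-fold lower, the smallest p among the members. Fas, the death receptor for FasL, stood at 102, 94.6 and 98.1 CPM against 69.8, 70.0 and 75.8 CPM. Fas rose by 0.45 on the log2 scale (SE 0.037; edgeR adjusted p = 1.56e-15), or 1.37-fold, the largest rise among the members. Fasl, the gene of its ligand, had 4 counts over the thrombocytopenic and 0 over the control libraries and was not tested. Against the fall of Tnfsf10, the gene of its mouse death receptor, Tnfrsf10b, rose from 3.18 ± 0.375 to 6.66 ± 0.369 CPM (1.07 on the log2 scale, SE 0.117; edgeR adjusted p = 2.89e-11). Tnfrsf22, which encodes a decoy receptor for TRAIL, rose from 0.754 ± 0.045 to 1.30 ± 0.198 CPM (0.79, SE 0.251; edgeR adjusted p = 0.0083), but did not pass without thrombocytopenic replicate 1 (0.65, adjusted p = 0.0713). Tnfrsf23, the gene of another decoy receptor, had 3.29 ± 0.808 CPM in the thrombocytopenic and 4.14 ± 0.529 CPM in the control group (edgeR adjusted p = 0.0707, not past the threshold). Leaving out thrombocytopenic replicate 2 brought Tnfrsf23 past the threshold as lower (-0.46, adjusted p = 0.0188), as did leaving out control replicate 2 (-0.45, adjusted p = 0.0302).

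The sequences before the start sites are shown for Tnf and Tnfrsf1a (higher) and Tnfsf10 and Tnfrsf1b (lower), picked with their values known. They are the 250 bases upstream of each RefSeq start site in build GRCm38.p6, 5′ to 3′ on the gene's strand, and the build behind the counts is not given in the sources used here. Capitals mark matches, on either strand, to the kappa-B consensus bound by NF-kB, the interferon response element core (GAAA, any 2 bases, GAAA), the AP-1 letters TGANTCA or the TATA box letters TATAAA.
Tnf (chr17:35202008-35202257, minus strand): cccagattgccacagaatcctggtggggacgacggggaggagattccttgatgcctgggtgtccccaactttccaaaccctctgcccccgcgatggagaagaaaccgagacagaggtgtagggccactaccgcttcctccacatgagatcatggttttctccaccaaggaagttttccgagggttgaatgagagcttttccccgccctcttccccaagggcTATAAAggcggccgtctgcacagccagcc
Tnfsf10 (chr3:27316827-27317076, plus strand): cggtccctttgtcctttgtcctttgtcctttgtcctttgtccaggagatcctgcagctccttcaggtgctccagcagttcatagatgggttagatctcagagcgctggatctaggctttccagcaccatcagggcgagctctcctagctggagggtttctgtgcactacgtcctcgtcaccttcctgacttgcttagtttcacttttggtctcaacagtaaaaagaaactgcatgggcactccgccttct
Tnfrsf1a (chr6:125349473-125349722, plus strand): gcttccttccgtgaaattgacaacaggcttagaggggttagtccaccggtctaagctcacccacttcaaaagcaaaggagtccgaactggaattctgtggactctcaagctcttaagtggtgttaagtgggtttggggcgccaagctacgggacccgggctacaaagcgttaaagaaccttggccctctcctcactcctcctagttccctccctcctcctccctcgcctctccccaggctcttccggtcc
Tnfrsf1b (chr4:145246871-145247120, minus strand): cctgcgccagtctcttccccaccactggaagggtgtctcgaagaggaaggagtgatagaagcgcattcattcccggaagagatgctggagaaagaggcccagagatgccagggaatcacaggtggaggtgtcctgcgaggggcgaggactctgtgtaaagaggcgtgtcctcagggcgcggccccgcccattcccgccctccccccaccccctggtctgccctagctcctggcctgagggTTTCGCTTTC
The Tnf window held TATAAA from 29 to 24 bases before the start site, as did 12.4% of 32851 windows of this length at any position. The Tnfrsf1b window held the interferon response element core on the opposite strand, in the last 10 bases before the start site, as did 2.98% of windows at any position. The windows of Tnfsf10 and Tnfrsf1a held none of the 4 motifs. Of the 9 members with a window, 2 held the kappa-B consensus (Ltb and Tnfrsf9; 7.25% of all windows), 2 held the interferon response element core (Tnfrsf1b and Tnfsf13b) and 3 held TGANTCA (Tnfsf13b, Tnfrsf9 and Fas; 6.75% of all windows). In Tnfrsf9 the 2 kappa-B matches overlapped, and Tnfsf13b and Tnfrsf9 had 2 windows each. These matches describe letters and not bound sites.

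**Figure D2:**
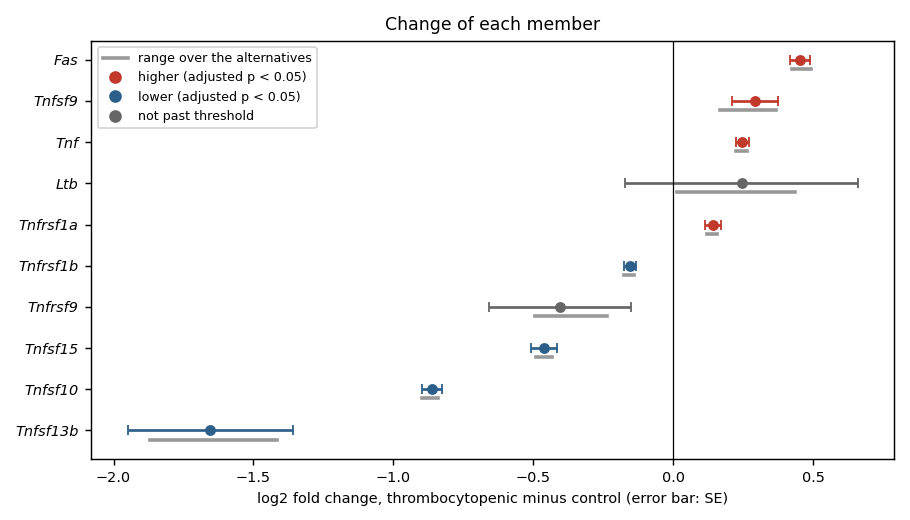
Log2 fold change of each member, thrombocytopenic minus control, with its SE (horizontal axis); grey bars below each point give the range over the alternative processing settings. Tnfsf13b at -1.65 and Tnfsf10 at -0.86 lie farthest from 0, and Ltb and Tnfrsf9 did not pass the threshold.

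Tnfsf15 and Tnfsf13b, genes of ligands that act on lymphocytes, were lower, while Tnfsf9, another such gene, was higher. Tnfsf15 encodes TL1A, which costimulates T cells through the receptor DR3. It stood at 31.6, 29.6 and 31.0 CPM in the thrombocytopenic libraries and at 40.6, 42.4 and 44.0 CPM in the control libraries. The log2 fold change of Tnfsf15 was -0.46 (SE 0.047; edgeR adjusted p = 3.55e-12), or 1.38-fold lower, with no overlap of the groups. Tnfrsf25, the gene of DR3, was not tested, with 9 counts over the thrombocytopenic and 15 over the control libraries.

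Tnfsf13b encodes BAFF, a survival factor of B cells. Its levels were low, with 19, 7 and 16 counts (0.509, 0.235 and 0.447 CPM) in the thrombocytopenic libraries and 34, 44 and 37 counts (1.37, 1.22 and 1.29 CPM) in the control libraries. The log2 fold change of Tnfsf13b was -1.65 (SE 0.295; edgeR adjusted p = 4.92e-06), or 3.15-fold lower, the largest fold among the members and the least precise of those called. The BAFF receptor gene Tnfrsf13b, which encodes TACI, went the other way, from 48.0 ± 2.48 to 58.1 ± 0.521 CPM (0.27, SE 0.041; edgeR adjusted p = 1.67e-07). The other BAFF receptor genes, Tnfrsf13c and Tnfrsf17, had at most 7 counts in a group and were not tested. Markers of dendritic and of basophil and mast cells were lower in the same libraries. The 4 lower dendritic cell markers were Siglech, at 0.313 ± 0.064 CPM in the thrombocytopenic and 1.39 ± 0.099 CPM in the control group, Zbtb46 (0.414 ± 0.224 and 1.21 ± 0.204 CPM), Flt3 (0.695 ± 0.166 and 1.71 ± 0.226 CPM) and Ccr7, at a far higher level (15.2 ± 1.34 and 28.0 ± 1.83 CPM). The 5 lower basophil and mast cell markers were Mcpt8 (0.118 ± 0.059 and 2.27 ± 0.273 CPM), Ms4a2 (0.0093 ± 0.016 and 0.721 ± 0.220 CPM), Gata2 (0.218 ± 0.073 and 1.01 ± 0.219 CPM), Cd200r3 (0.041 ± 0.023 and 0.590 ± 0.082 CPM) and Kit (1.27 ± 0.433 and 2.84 ± 0.487 CPM). The part of these cells in the result for Tnfsf13b was not tested.

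Tnfsf9 encodes the ligand of the T cell costimulator 4-1BB, whose gene is Tnfrsf9. Tnfsf9 stood at 13.9, 15.2 and 12.8 CPM in the thrombocytopenic libraries and at 12.1, 9.75 and 12.6 CPM in the control libraries. The gap between the groups was narrow, since the lowest thrombocytopenic and the highest control library nearly met. Tnfsf9 rose by 0.29 on the log2 scale (SE 0.081; edgeR adjusted p = 0.00297), but without control replicate 2 the value was 0.17 and did not pass (adjusted p = 0.11). In the GENCODE M21 annotation 14.9% of the exon length of Tnfsf9 overlaps Gm11110, a noncoding gene on the opposite strand with 129 and 143 counts in the thrombocytopenic and control groups. If strand was ignored in counting, which the sources used here leave unsaid, reads of the 2 genes there cannot be told apart. Tnfrsf9 was at 0.697, 0.972 and 0.979 CPM in the thrombocytopenic and 1.005, 1.06 and 1.43 CPM in the control libraries. The groups were apart by a narrow gap, and Tnfrsf9 did not pass (log2 fold change -0.41, SE 0.254; edgeR adjusted p = 0.201).

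Ltb encodes lymphotoxin beta, a membrane ligand made chiefly by lymphocytes. It had 17, 10 and 10 counts in the thrombocytopenic libraries and 8, 8 and 11 in the control libraries, that is 0.456, 0.335 and 0.280 CPM against 0.321, 0.222 and 0.383 CPM. The groups overlapped, and a difference was not detectable at this depth (log2 fold change 0.24, SE 0.415; edgeR adjusted p = 0.674). Lta, the gene of its partner lymphotoxin alpha, had 5.40 ± 0.417 CPM in the thrombocytopenic and 6.34 ± 0.601 CPM in the control group, short of the threshold (edgeR adjusted p = 0.0708). For Lta, the threshold was passed when thrombocytopenic replicate 3 (-0.29, adjusted p = 0.0412) or control replicate 3 (-0.30, adjusted p = 0.0288) was left out. Lta also passed as lower with upper quartile scaling. Their receptor gene Ltbr had 60.4 ± 0.236 and 63.4 ± 2.48 CPM and missed the threshold as well (edgeR adjusted p = 0.159). With upper quartile scaling Ltbr passed as lower.

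Levels can be compared between genes only per length, here as CPM per kilobase of exon in the GENCODE M21 annotation, which may not be the one used for counting. Tnfrsf1b had the highest level among the members, at 1293 ± 21.6 in the thrombocytopenic and 1438 ± 3.77 CPM per kilobase in the control libraries. Tnf was next, at 812 ± 17.1 and 684 ± 9.16 CPM per kilobase. Tnfrsf1a followed at 98.8 ± 2.58 and 89.4 ± 1.73, and Fas at 47.6 ± 1.76 and 34.8 ± 1.65 CPM per kilobase. The 3 next ligands changed order between the groups. In the control libraries the level per kilobase was 20.1 ± 0.768 CPM for Tnfsf10, 12.6 ± 0.514 CPM for Tnfsf15 and 8.89 ± 1.17 CPM for Tnfsf9, with no overlap between neighbours. In the thrombocytopenic libraries it was 11.1 ± 0.253 CPM for Tnfsf10 and 10.8 ± 0.899 CPM for Tnfsf9, whose libraries overlapped, and 9.18 ± 0.298 CPM for Tnfsf15. Tnfrsf9, Ltb and Tnfsf13b were all under 1 CPM per kilobase in every library. Of these, Tnfrsf9 at 0.427 ± 0.085 CPM per kilobase was above Ltb (0.204 ± 0.054) in the control libraries without overlap, while Ltb and Tnfsf13b (0.188 ± 0.010) overlapped. In the thrombocytopenic libraries Tnfrsf9 (0.324 ± 0.059) and Ltb (0.235 ± 0.059) overlapped and Tnfsf13b was lowest, at 0.058 ± 0.021 CPM per kilobase.

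**Figure D3:**
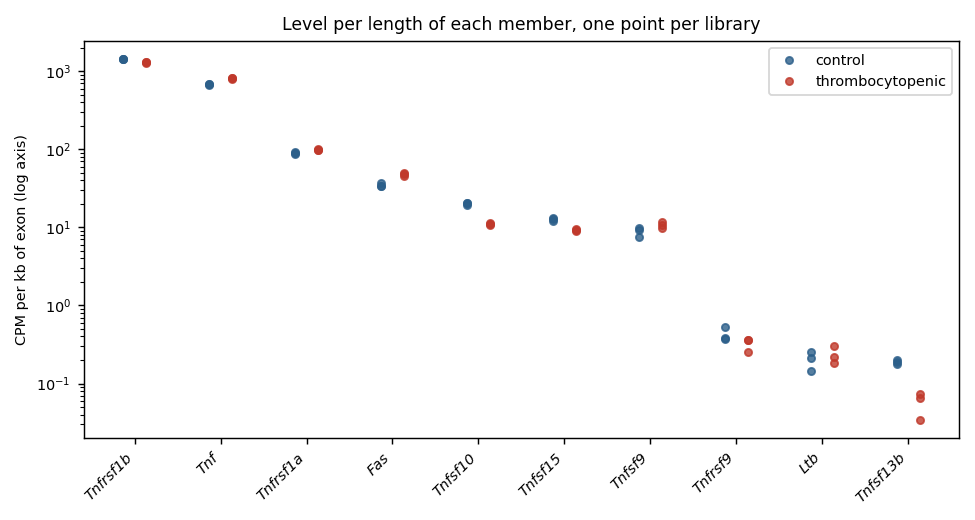
Level of each member in CPM per kilobase of exon (vertical log axis), with 1 point per control (blue) and thrombocytopenic (red) library and genes ordered by the control mean. Tnfrsf1b and Tnf lie above the other members, and Tnfrsf9, Ltb and Tnfsf13b lie below 1 CPM per kilobase.

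The rest of the superfamily was read from a list of 36 further genes, of which 20 were tested. Among the 12 further ligands 5 were tested, with 1 higher, 2 lower and a median log2 fold change of -0.39. That is 3 of 5 called, beside 45.1% of all tested genes. Tnfsf8, which encodes the ligand of CD30, fell from 3.89 ± 0.807 to 1.53 ± 0.374 CPM (-1.34, SE 0.172; edgeR adjusted p = 5.02e-09). Tnfsf12, the gene of TWEAK, fell from 12.2 ± 0.859 to 9.26 ± 0.488 CPM (-0.39, SE 0.079), and is uncertain because 48.3% of its exon length overlaps the readthrough gene Tnfsfm13 in GENCODE M21. Tnfsf4, the gene of the OX40 ligand, rose from 1.19 ± 0.267 to 1.75 ± 0.285 CPM (0.52, edgeR adjusted p = 0.0429). This call was lost without control replicate 1 (0.37, adjusted p = 0.207), control replicate 3 (0.57, 0.0655), thrombocytopenic replicate 2 (0.51, 0.0825) or thrombocytopenic replicate 3 (0.40, 0.198), and with DESeq2 (adjusted p = 0.108). It was also lost with limma-voom (adjusted p = 0.0579), and in edgeR with upper quartile scaling (adjusted p = 0.0551) or no low-count filter (adjusted p = 0.0624). Cd40lg, the T cell ligand of CD40, had 0 counts in all libraries, which allows up to 0.0291 CPM in the thrombocytopenic and 0.0335 CPM in the control group by counting error only.

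Among the 24 further receptors 15 were tested, with 6 higher, 5 lower and a median log2 fold change of 0.14, beside 22.4% higher and 22.7% lower over all tested genes. The receptors that rose included Tnfrsf11a, which encodes RANK, the receptor that drives osteoclast formation from monocytes, from 191 ± 4.20 to 239 ± 2.30 CPM (0.33, SE 0.028; edgeR adjusted p = 9.53e-15). Tnfrsf14, the gene of the LIGHT receptor HVEM, rose from 88.4 ± 2.34 to 98.2 ± 5.38 CPM (0.15, SE 0.036). Tnfrsf10b, Tnfrsf13b and Tnfrsf22, given above, rose as well. Of the receptors that fell, Tnfrsf21, which encodes death receptor 6, had the smallest p. It fell from 29.3 ± 1.56 to 17.3 ± 0.410 CPM (-0.76, SE 0.056; edgeR adjusted p = 4.47e-17). Tnfrsf12a, the TWEAK receptor gene, fell from 2.33 ± 0.310 to 1.12 ± 0.101 CPM (-1.05, SE 0.201), and Tnfrsf8, the gene of CD30, fell from 14.7 ± 0.639 to 12.4 ± 0.878 CPM (-0.25, SE 0.071). Cd40 fell from 636 ± 3.79 to 600 ± 20.8 CPM (-0.08, SE 0.026), a call that was lost without thrombocytopenic replicate 2 (-0.06, adjusted p = 0.0849). The remaining called receptors, Eda2r (higher) and Tnfrsf26 (lower), were under 1 CPM on average. The call of Eda2r was lost with DESeq2, without thrombocytopenic replicate 1 and without control replicate 2.

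**Figure D4:**
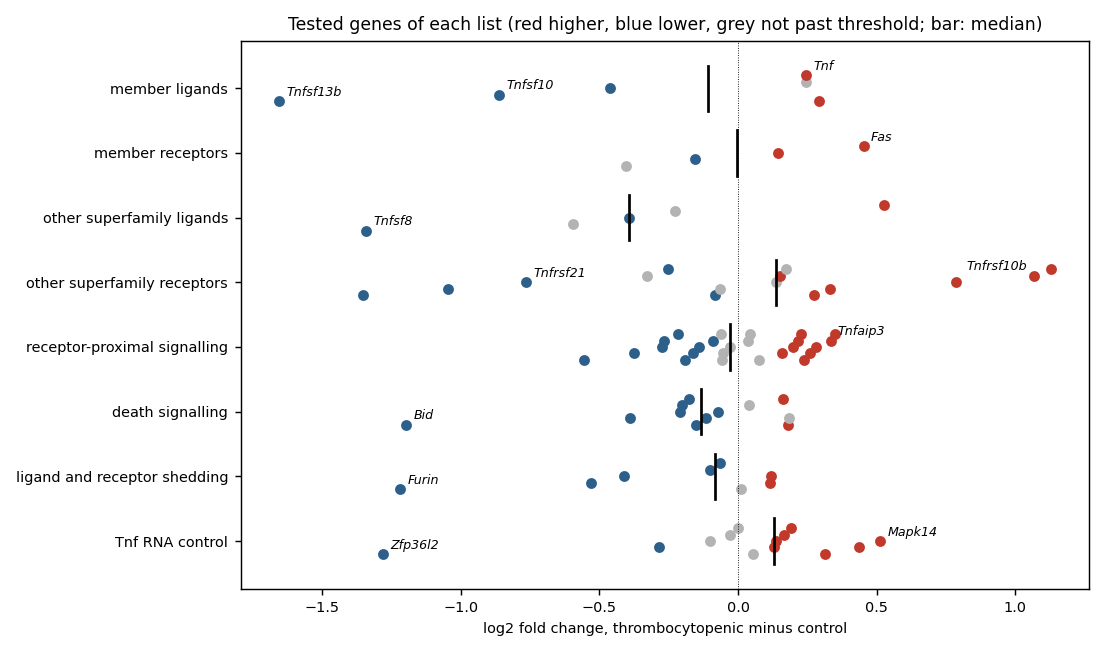
Log2 fold change (horizontal axis, thrombocytopenic minus control) of every tested gene in the superfamily and pathway lists, 1 point per gene, red where higher, blue where lower and grey where not past the threshold, with a black bar at each list's median. Changes go both ways in every list, and Bid, Furin and Zfp36l2 each fell by more than the other genes of their list.

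Genes that carry the signal from the receptors changed both ways, 9 higher and 9 lower of 25 tested, with a median log2 fold change of -0.03, beside 22.4% higher and 22.7% lower over all tested genes and 55.2% called among those of at least 10 CPM. Tnfaip3, which encodes the ubiquitin-editing inhibitor A20 and is itself a target of NF-kB, rose from 615 ± 10.4 to 775 ± 18.5 CPM (0.33, SE 0.025; edgeR adjusted p = 9.12e-17). Birc3, the gene of the ubiquitin ligase cIAP2, rose from 288 ± 16.2 to 366 ± 6.99 CPM (0.35, SE 0.030). Ikbkg, the gene of the kinase subunit NEMO, rose from 225 ± 1.77 to 269 ± 5.82 CPM (0.26), and Tab2, an adaptor of the kinase TAK1, rose from 346 ± 6.89 to 405 ± 6.80 CPM (0.23). Of the 6 TRAF adaptor genes listed, Traf2, Traf3, Traf5 and Traf6 were called lower, with Traf5 changing most, from 9.001 ± 0.249 to 6.11 ± 0.476 CPM (-0.55). Traf1 did not pass the test (-0.06, edgeR adjusted p = 0.0785). It did with upper quartile scaling (-0.08, adjusted p = 0.0104) and with library total scaling, and Traf4 was not tested. The TRAF genes were picked out after their values were seen.

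Of 12 tested death signalling genes 8 were lower and 2 higher, with a median log2 fold change of -0.13. Beside this, 22.7% were lower and 22.4% higher over all tested genes, and 55.2% were called among those of at least 10 CPM. The count of lower genes was 6 without control replicate 3. Bid, whose product links death receptors to mitochondria, fell from 34.4 ± 0.842 to 15.0 ± 1.10 CPM (-1.20, SE 0.057; edgeR adjusted p = 6.42e-25). In GENCODE M21 17.7% of its exon length overlaps Bcl2l13 on the opposite strand. Casp8, the caspase that death receptors activate, fell from 178 ± 3.23 to 154 ± 2.28 CPM (-0.21), and Mlkl, the executor of necroptosis, from 124 ± 2.19 to 108 ± 2.35 CPM (-0.20). Tnfaip8, a TNF-induced gene, rose from 114 ± 2.04 to 130 ± 3.93 CPM (0.18). The other higher gene, Ripk3, rose from 17.4 ± 0.646 to 19.5 ± 0.665 CPM (0.16, edgeR adjusted p = 0.0247). The call of Ripk3 was lost with DESeq2 and with upper quartile scaling. It was also lost without thrombocytopenic replicate 1, control replicate 1 or control replicate 2. Cflar, the gene of the caspase 8 inhibitor c-FLIP, had 752 ± 14.3 CPM in the thrombocytopenic and 731 ± 6.04 CPM in the control group, not past the threshold (edgeR adjusted p = 0.193).

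Of 8 tested genes that shed or process the ligands and receptors, 2 were higher and 5 lower, with a median of -0.08. Beside this, 22.4% were higher and 22.7% lower over all tested genes, and 55.2% were called among those of at least 10 CPM. The lower count was 4 in 11 of 15 alternatives, including each that left out a library. Adam17, the protease that releases TNF and both TNF receptors from the cell surface, rose from 962 ± 18.2 to 1044 ± 4.48 CPM (0.12, SE 0.024; edgeR adjusted p = 4.69e-05). Its partner gene Rhbdf2, which encodes iRhom2, fell from 302 ± 4.43 to 282 ± 10.9 CPM (-0.10, SE 0.028). Furin, the gene of the protease that matures ADAM17 and cleaves BAFF, fell from 355 ± 13.4 to 153 ± 6.60 CPM (-1.22, SE 0.031; edgeR adjusted p = 7.28e-33). Sppl2b, an intramembrane protease gene, fell from 19.8 ± 0.664 to 14.9 ± 0.680 CPM (-0.41).

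Of 13 tested genes that act on the stability or translation of Tnf RNA, 7 were higher and 2 lower, with a median of 0.13, beside 22.4% higher and 22.7% lower over all tested genes and 55.2% called among those of at least 10 CPM. Kinases that promote TNF production were among the higher ones. Mapk14 rose from 177 ± 0.351 to 252 ± 5.85 CPM (0.51, SE 0.028; edgeR adjusted p = 4.07e-22), its substrate kinase Mapkapk2 from 1792 ± 36.1 to 2427 ± 49.7 CPM (0.44, SE 0.023), and Map3k8 from 63.0 ± 2.77 to 78.1 ± 1.49 CPM (0.31, SE 0.038). Zfp36, the gene of tristetraprolin, which destabilises Tnf RNA, rose from 802 ± 38.5 to 882 ± 18.6 CPM (0.14, edgeR adjusted p = 4.74e-05). Its relative Zfp36l2 fell from 26.2 ± 0.540 to 10.8 ± 0.537 CPM (-1.28, SE 0.063; edgeR adjusted p = 2.24e-24). The other higher genes of this list were Elavl1 (0.13), Rc3h1 (0.17) and Rc3h2 (0.19). Zfp36, Elavl1, Rc3h1 and Rc3h2 were added to the named genes after their values were seen.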

How the data were processed

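Polyadenylated RNA was sequenced in 6 libraries, and the files the authors deposited hold raw counts per gene symbol, whole numbers with a different total in each file. The submitters' processing notes name STAR 2.7.9a, Salmon 1.5.2, featureCounts of Subread 2.0.1, and fastp 0.23.1. What each did, the genome build, the annotation and the strand setting are not given in the sources. Groups and replicate numbers come from the labels. Of 56832 genes, 12488 passed a low-count filter (filterByExpr, with min.count 10 and min.total.count 15) and were compared with edgeR 4.0.16 in R 4.3.3 (TMM scaling, quasi-likelihood test, robust fit, two-sided, group as the only term), with Benjamini-Hochberg adjustment over all of them and a threshold of 0.05. SE is derived from the fold change and the F statistic (|log2 fold change| / √F). Single-gene CPM values are scaled by TMM factors, marker sums by library totals. Log2 CPM for the likeness with Tnf used a prior count of 2. No library was a copy of another within sampling noise (chi-square per degree of freedom 1.87 to 3.11). In data simulated for this comparison on 12352 genes, the test called 46% of genes changed 1.25-fold, 70.8% at 1.5-fold, 95.9% at 2-fold and 11 of 12158 unchanged genes. Only 200 genes were set to change there, while 5626 were called in the real data. The adjusted threshold depends on that share, so these rates do not carry over to the real comparison. Genes near 1 CPM have few counts, so their folds are imprecise.

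The members and lists were chosen with earlier results of these data known. Named genes are the 10 members, called superfamily genes with a mean of at least 1 CPM, the 4 genes with the smallest p of each other pathway list and the 3 closest to Tnf; further genes were chosen after their values were seen. Promoter windows (9 of 10 members matched by symbol; Tnfsf9 had none) are RefSeq's in GRCm38.p6, and exon lengths are the union of exons in GENCODE M21 on GRCm38. Alternatives were other scalings, DESeq2 1.42.0, limma-voom (limma 3.58.1), no robust option, 2 other filters, leaving out each library and a replicate block.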

Additional observations from a re-analysis of the deposited data

How the results depend on the processing

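Under the alternatives the number of members called stayed at 8, 4 higher and 4 lower, except without control replicate 2, where Tnfsf9 was lost and 7 were called; leaving out 1 library each gave 7 to 8. No member changed direction in 149 comparisons with an alternative, of which 148 also kept the side of the threshold. The lowest and highest log2 fold changes were 0.22 and 0.26 for Tnf, -0.90 and -0.84 for Tnfsf10, 0.43 and 0.49 for Fas, 0.12 and 0.16 for Tnfrsf1a, -0.18 and -0.14 for Tnfrsf1b, and -1.87 and -1.42 for Tnfsf13b. Of 615 such comparisons for 41 other genes of the text, 597 kept their side of the threshold, 10 lost the call, 8 of them for Tnfsf4, and 8 gained one (Traf1, Lta, Ltbr and Tnfrsf23). These 41 genes leave out Eda2r, Tnfrsf26, Ripk3, Elavl1, Rc3h1, Rc3h2 and the marker genes. The lists had 6 to 8 lower death signalling genes, 4 to 5 lower shedding genes, and 4 to 6 receptors in each direction. All tested genes called numbered 4720 with DESeq2 to 5645 with RLE scaling, beside 5626. Replicate numbers did not pair the libraries: deviations of same-numbered libraries correlated at -0.038, -0.089 and -0.013, and no thrombocytopenic library correlated best with the control library of its own number. With the replicate block 5402 genes and the same number of members, 8, were called. The ratio of Tnfrsf1b to Tnfrsf1a stayed lower without each library, and the difference of the edgeR fold changes gave -0.30 as well. Both follow from the values of the 2 genes and add no separate evidence. Depth limits Ltb, Tnfrsf9 and Tnfsf13b, whose summed counts were 27 to 115 per group.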

Other observations

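Several members lie beside another superfamily gene among the protein-coding genes of the RefSeq annotation (GRCm38.p6), and the values of these neighbours are set side by side here without a test of the grouping. On chromosome 17 Tnf lies between Ltb and Lta. Tnf rose from 1122 ± 15.0 to 1331 ± 28.1 CPM, while Lta was at 5.40 ± 0.417 CPM against 6.34 ± 0.601 CPM and Ltb at 0.357 ± 0.090 CPM against 0.309 ± 0.081 CPM, and neither of these passed the test. On chromosome 4 Tnfsf15 is next to Tnfsf8, and both fell, by log2 fold changes of -0.46 and -1.34. On the same chromosome Tnfrsf1b is next to Tnfrsf8, and both fell, by -0.15 and -0.25. On chromosome 17 Tnfsf9 is next to Cd70, another costimulatory ligand gene, which had 2 counts over the thrombocytopenic and 4 over the control libraries.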
